A study of Mus musculus with 15 samples.

Results

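The genes described here are 10 members of polyamine synthesis, breakdown and control: Odc1, Amd1, Srm and Sms, which make polyamines, Sat1 and Smox, which break them down, Mtap, which recycles a by-product, and Oaz1, Oaz2 and Azin1, which set the activity of the first enzyme. They were taken by symbol from the authors' normalized matrix, where 22 probes of 41174 carry one of these symbols, and they are 10 of the 21335 genes named on the array. All 10 had at least 1 probe that passed the filter on dim probes, and 2 of the 22 probes, 1 for Azin1 and 1 for Smox, did not pass. RNA was measured on 15 single-colour Agilent arrays of FVB/N mouse liver and liver tumor, from a model in which a MYC transgene can be switched on and off. Every mouse carried LAP-tTA, in which a liver promoter drives a transactivator that doxycycline blocks. The 3 control livers carried LAP-tTA alone. The other 12 arrays held LAP-tTA x TRE-MYC animals, in which the transactivator drives MYC once doxycycline is withdrawn. Mice were kept on chow with doxycycline at 200 mg/kg until they were over 8 weeks old. After withdrawal, 4 livers without tumors (pre-tumor) were collected at 4 to 5 weeks and 4 tumor nodules at 8 to 9 weeks. The 4 regression samples were tumor tissue from mice that spent 8 to 9 weeks off doxycycline and then returned to it for 72 hours. How long the control mice had been off the drug is not given in the labels.

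Polyamines are small, positively charged molecules that bind nucleic acids and are needed for growth. Ornithine decarboxylase (Odc1) turns ornithine into putrescine, S-adenosylmethionine decarboxylase (Amd1) supplies the aminopropyl groups, and spermidine synthase (Srm) and spermine synthase (Sms) add these groups to form spermidine and then spermine. Antizymes (Oaz1, Oaz2) bind the Odc1 protein and send it to the proteasome, and antizyme inhibitor (Azin1) sequesters the antizymes. Spermidine/spermine acetyltransferase (Sat1) and spermine oxidase (Smox) run the pathway backwards, and methylthioadenosine phosphorylase (Mtap) salvages what the synthases leave over. Odc1 is a long-known target of MYC, which binds as a pair with MAX to the E-box CACGTG and to variants such as CACGCG.

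Promoters are shown for 3 synthesis genes that moved together in the tumors and for Sat1, which moved the other way during regression. Each is the 250 bases before a RefSeq start site, build GRCm38.p6, printed along the gene's own strand. Capitals mark CACGTG or CACGCG, searched on both strands, so that CGCGTG is CACGCG on the other strand. The windows lie at chr12:17544623-17544872 on the plus strand for Odc1, and on the minus strand at chrX:157492288-157492537 for Sms, chr10:40302189-40302438 for Amd1 and chrX:155216450-155216699 for Sat1.
Odc1: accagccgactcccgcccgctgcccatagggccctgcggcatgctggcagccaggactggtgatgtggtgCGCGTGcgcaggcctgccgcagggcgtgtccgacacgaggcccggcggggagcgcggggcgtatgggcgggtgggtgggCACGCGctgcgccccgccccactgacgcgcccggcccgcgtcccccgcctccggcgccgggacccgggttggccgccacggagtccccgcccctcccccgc
Sms: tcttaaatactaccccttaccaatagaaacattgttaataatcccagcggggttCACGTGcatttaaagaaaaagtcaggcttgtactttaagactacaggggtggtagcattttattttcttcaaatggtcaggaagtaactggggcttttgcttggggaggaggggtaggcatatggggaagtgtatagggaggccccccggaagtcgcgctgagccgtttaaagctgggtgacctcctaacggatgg
Amd1: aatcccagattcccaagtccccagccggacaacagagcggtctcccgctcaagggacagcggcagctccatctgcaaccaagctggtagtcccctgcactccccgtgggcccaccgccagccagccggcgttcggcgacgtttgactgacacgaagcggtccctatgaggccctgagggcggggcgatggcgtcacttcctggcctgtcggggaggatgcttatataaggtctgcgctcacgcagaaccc
Sat1: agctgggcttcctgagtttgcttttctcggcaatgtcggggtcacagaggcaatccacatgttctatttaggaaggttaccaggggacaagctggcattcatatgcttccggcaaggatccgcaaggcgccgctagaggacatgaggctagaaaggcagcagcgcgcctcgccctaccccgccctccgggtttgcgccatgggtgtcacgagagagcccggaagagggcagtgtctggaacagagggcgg
The table of promoters held 8 of the 10 genes, all but Srm and Azin1. CACGTG occurred in 1 of the 8, Sms, where its first base lies at -196 from the start site. CACGCG occurred in 3 of the 8: in Odc1 at -180 and -101, in Oaz1 at -212, and in Sms at -140 from a second start site. Over all 32851 windows of this length, 6.02% held CACGTG and 7.62% held CACGCG. Counted by gene, over 27025 genes, the shares were 6.86% and 8.65%. The capitals are matches of letters and were not tested as binding sites. Bases after the start site, introns among them, were not searched, so a window without a match does not mean a gene without one.

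Levels below are log2 signal relative to the 75th percentile of the same array, so that a difference of 1 is a factor of 2. They compare 1 probe between groups and cannot rank genes against each other. Group differences come from limma, fitted to 19233 genes on all 15 arrays. A gene is called changed where its p-value, adjusted over all genes by the Benjamini-Hochberg method, is under 0.05. The labels do not say whether the arrays of a group came from separate mice, and the tests measure only the spread between these samples. Between 46.4% and 90.8% of spots on an array were well above background, lowest on the array of tumor 3 and highest on that of pre-tumor 4. Each of 4 slides held at most 1 array of each group. Centring arrays on their median in place of the 75th percentile moved the median difference of all genes between tumor and control from -0.18 to 0.14, and the share of calls that were higher from 57.3% to 68.7%. The hepatocyte marker Alb was well above background on every array, as a check that the tissue was liver. That check does not tell the groups apart. The switch itself was read by 3 Myc probes that disagreed. One of them (A_52_P108346) was 5.16 higher in tumors than in controls (limma adjusted p = 7.77e-06) and changed by -4.66 after doxycycline (adjusted p = 2.79e-05). The other 2 probes differed from control by -1.18 and -1.10, neither of them called. One of these (A_51_P102096) was lower in tumors than in pre-tumor livers (-1.26, adjusted p = 0.0436) and rose by 1.64 on regression (adjusted p = 0.0127). It was not well above background on tumor 1, tumor 2 or tumor 3, so both differences rest on dim tumor signal. Whether each probe reads the transgene or the mouse gene is not given in the sources used here.

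In the tumors the 4 synthesis genes were all higher than in control liver, and all 4 were lower again after 72 hours of doxycycline. Srm was 6.51-fold higher in tumors, Sms 4.28-fold, Odc1 4.27-fold and Amd1 2.93-fold. These 4 were the 4 of 10 polyamine genes called higher in tumors against control, where 9.41% of all genes were called higher, and 0 of 10 were called lower, where 7.01% of all genes were. On regression 4 of 10 were lower and 2 of 10, Sat1 and Smox, were higher, against 8.49% and 8.36% of all genes. Tumor arrays enter both comparisons, so the rise and the fall are not independent of each other.

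Odc1, the first and tightly controlled step, was read by a probe at chr12:17576429-17576487 on the plus strand of mm9. Its levels were 1.76, 2.03 and 1.83 on the control arrays and 2.20, 1.86, 2.70 and 1.53 on the pre-tumor arrays. The tumors gave 4.13, 4.17, 3.31 and 4.24, and the regression samples 1.60, 1.28, 1.50 and 1.62. Every tumor array lay above every array of the other 3 groups, and every regression array lay below every control array. Of all genes, 13.7% lay wholly above control in tumors, and 15.2% lay wholly below control in regression samples. Odc1 was 2.09 ± 0.34 (SE) higher in tumors than in controls (limma adjusted p = 4.10e-04) and 1.89 ± 0.31 higher than in pre-tumor liver (adjusted p = 3.95e-04). It fell by 2.46 ± 0.31 on regression (adjusted p = 1.01e-04), to a level that differed from control by -0.37 ± 0.34, which was not called. A second Odc1 probe moved by 2.17 and -2.22 in the same comparisons and was called in both. Tumor 3 was lowest for Odc1, and without it the rise over control was 2.31.

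Amd1, which decarboxylates S-adenosylmethionine, was measured at chr10:39977032-39977091 on the minus strand of mm9. Control arrays gave 0.56, 0.90 and 0.01, and pre-tumor arrays 0.07, 0.92, 1.36 and -0.50. Tumors gave 2.17, 2.25, 1.11 and 2.63, and regression samples 0.42, -0.27, -0.46 and -0.07. The tumor arrays lay above all control and regression arrays, but tumor 3 lay below pre-tumor 3. The difference from control was 1.55 ± 0.47 (limma adjusted p = 0.0324), that from pre-tumor liver 1.57 ± 0.43 (adjusted p = 0.0166), and the fall on regression -2.13 ± 0.43 (adjusted p = 0.00297). The rise over control was the least firm of the 4. It was not called without control 1, control 3, tumor 1, tumor 2 or tumor 4 in turn (adjusted p = 0.0702, 0.136, 0.0795, 0.0802 and 0.0736), with the slide as a block (0.0639), or when only those 2 groups were fitted (0.0521). The rise over pre-tumor liver was not called without pre-tumor 1 or pre-tumor 4 (0.0554 and 0.0603) or with only the 2 groups (0.0538). A second Amd1 probe gave 1.31 (adjusted p = 0.0534) and -1.99 (adjusted p = 0.00301). Amd2, a near-identical copy of Amd1 whose transcripts the probes may not separate, rose by 1.82 ± 0.41 in tumors and fell by 1.87 on regression.

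Srm, which makes spermidine, gave the largest differences among the 10 genes in these comparisons, and on regression its fall was the 35th deepest of all 19233 genes. Its single probe lies at chr4:147438124-147438183 on the plus strand of mm9. It read 2.47, 2.06 and 1.80 in control liver, and 1.15, 0.82, 1.73 and 1.24 in pre-tumor liver. Tumors read 4.77, 4.39, 5.39 and 4.68, and regression samples 1.46, 1.25, 0.92 and 0.56. Tumor arrays stood above every other array, while the pre-tumor and regression arrays all lay below the lowest control. Of all genes, 0.967% lay wholly below control in pre-tumor livers and 15.2% in regression samples. Tumors exceeded controls by 2.70 ± 0.35 (limma adjusted p = 5.20e-05) and pre-tumor livers by 3.57 ± 0.32 (adjusted p = 1.1e-06), and regression samples were below tumors by 13.6-fold (change -3.77 ± 0.32, adjusted p = 5.31e-06). The regression level was lower than control by 2.09-fold (change -1.06 ± 0.35), which was not called (adjusted p = 0.0748). That difference was called in 3 of 27 alternative analyses: with normexp background correction (-0.74), with quantile normalization (-1.12) and in the authors' deposited table.

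Sms, which makes spermine, was measured at chrX:152789879-152789938 on the minus strand of mm9. Levels were -0.35, 0.50 and -0.08 in controls and 0.03, 0.66, 0.08 and -0.09 in pre-tumor livers. They were 2.37, 2.73, 1.29 and 2.10 in tumors and 0.48, 0.12, -0.12 and 0.56 in regression samples. The 3 other groups overlapped one another, and every tumor array lay above them. The rise over control was 2.10 ± 0.38 (limma adjusted p = 9.77e-04), that over pre-tumor liver 1.95 ± 0.35 (adjusted p = 7.66e-04), and the fall on regression -1.86 ± 0.35 (adjusted p = 0.00167). The 3 Sms probes did not all move alike. A second one rose by 2.37 over control (adjusted p = 0.0124), but control 3 read -4.09 there, not well above background, and without that array, an analysis chosen after seeing the data, the rise was 1.44 (adjusted p = 0.0673). It was not called over pre-tumor liver (1.11, adjusted p = 0.201) or on regression (-1.67, adjusted p = 0.053). Another probe, well above background on 9 of 15 arrays, differed from control by -0.99 and was not called. Averaged over all 3 probes the rise was 1.16 over control (adjusted p = 0.0311), and it was 0.74 and no longer called over pre-tumor liver (adjusted p = 0.135).

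**Figure D1:**
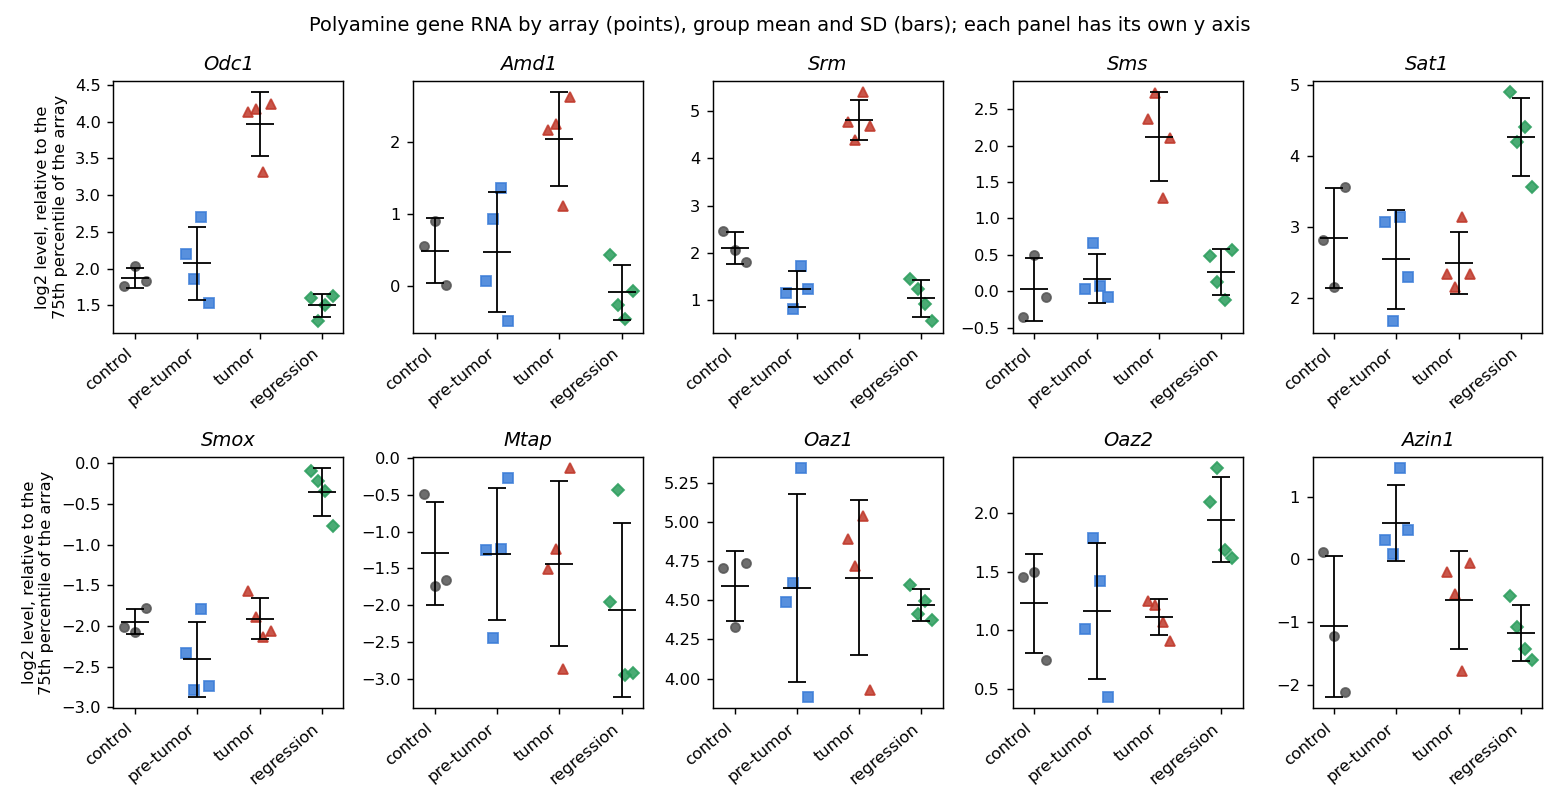
Level of each polyamine gene on each of the 15 arrays, in log2 relative to the 75th percentile of the array, with each group's mean and SD; each panel has its own axis. Odc1, Srm and Sms are higher in each of the 4 tumors than on any other array, and Smox is higher in each of the 4 regression samples (-0.77 to -0.09). Group means are highest in tumors for Amd1 and in regression samples for Sat1, where 1 array of another group reaches into the range.

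Sat1 and Smox, the breakdown enzymes, did not differ between tumors and controls by a called amount, and both were higher after 72 hours of doxycycline. Sat1 adds acetyl groups to spermidine and spermine, which marks them for oxidation or export. Its probe at chrX:150556864-150556923 on the minus strand of mm9 gave 2.82, 2.16 and 3.56 in controls and 3.07, 1.67, 3.14 and 2.29 in pre-tumor livers. Tumors gave 2.34, 2.16, 3.14 and 2.33, and regression samples 4.90, 4.20, 4.41 and 3.56. Regression samples all lay above the tumors and the pre-tumor livers, and the lowest of them overlapped the highest control. The difference from tumors was 1.77 ± 0.42, a factor of 3.42 (limma adjusted p = 0.00845), and from pre-tumor livers 1.72 ± 0.42 (adjusted p = 0.0153). The difference from control, 1.42 ± 0.46, was not called (adjusted p = 0.0691), although 8 of 27 alternative analyses did call it. The second Sat1 probe rose by 1.90 over tumors, and by 1.63 over controls (adjusted p = 0.0235). Without regression 1, the call against pre-tumor liver was lost (adjusted p = 0.058).

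Smox oxidizes spermine back to spermidine and releases hydrogen peroxide. Read at chr2:131216416-131216475 on the plus strand of mm9, it gave -2.01, -2.07 and -1.78 in controls and -2.33, -2.79, -1.79 and -2.73 in pre-tumor livers. Tumors gave -1.57, -1.89, -2.14 and -2.06, with 3 of the 4 well above background, and regression samples -0.09, -0.22, -0.34 and -0.77. The regression samples lay above all 11 other arrays. They exceeded tumors by 1.56 ± 0.30 (limma adjusted p = 0.00195), pre-tumor livers by 2.06 ± 0.30 (adjusted p = 2.97e-04) and controls by 1.60 ± 0.32 (adjusted p = 0.00492). Smox was the 1 of 10 genes called in regression against control, where 5.04% of all genes were called higher, and 0 of 10 were lower, against 3.30%. The call held in all 27 alternatives for regression against tumor, but the size did not: it was 0.36 with normexp background correction and 0.76 in the authors' deposited table.

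Mtap, the salvage enzyme, was not called in any of the 6 comparisons. Its probe at chr4:88651540-88651599 on the plus strand of mm9 gave -0.50, -1.73 and -1.66 in controls, -1.26, -2.44, -1.23 and -0.27 in pre-tumor livers, -1.50, -1.24, -2.86 and -0.14 in tumors, and -1.96, -0.44, -2.94 and -2.92 in regression samples. All 4 groups overlapped. The spread within groups was wide (SD 1.12 among tumors and 1.17 among regression samples, n = 4 each), and the difference between tumors and controls was -0.14 ± 0.69.

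Oaz1 and Oaz2, the antizymes, were not called in any of the 6 comparisons as fitted. Oaz1 (chr10:80231983-80232042 on the plus strand of mm9) gave 4.70, 4.33 and 4.73 in controls and 4.49, 4.61, 5.34 and 3.88 in pre-tumor livers. It gave 4.89, 4.72, 5.04 and 3.92 in tumors and 4.60, 4.41, 4.49 and 4.37 in regression samples. These ranges overlapped throughout, and tumors differed from controls by 0.05 ± 0.37. Oaz2 (chr9:65487749-65487808 on the plus strand of mm9) gave 1.45, 1.50 and 0.74 in controls and 1.01, 1.79, 1.42 and 0.43 in pre-tumor livers. Tumors gave 1.25, 1.21, 1.07 and 0.91, and regression samples 2.09, 2.38, 1.68 and 1.62. The regression samples lay above every tumor and control array and overlapped the pre-tumor range. Of all genes, 10.8% lay wholly above tumors in regression samples and 10.2% wholly above controls. The difference from tumors, 0.83 ± 0.33, was not called (limma adjusted p = 0.112), and the other 3 Oaz2 probes gave 0.76, 0.89 and 0.56, none of them called. On the probe that gave 0.76, regression differed from control by 0.11 and tumors from pre-tumor livers by -0.84, neither of them called. The probe that gave 0.56 was well above background on 1 of 4 tumor arrays. For Oaz2 as measured by the first probe, the call varied with the processing. It was called in 2 of 27 alternatives, with normexp background correction (0.55, adjusted p = 0.0156) and in the authors' deposited table (0.76, adjusted p = 0.016), which raised the genes higher in regression against tumor from 2 to 3. The share of all genes called higher went from 8.36% to 8.96% and 9.66%. Antizyme protein is set largely by translational frameshifting that polyamines promote, which RNA arrays do not measure.

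Azin1, the antizyme inhibitor, was measured at chr15:38434890-38434949 on the minus strand of mm9. It gave 0.12, -1.22 and -2.11 in controls and 0.31, 0.09, 1.45 and 0.47 in pre-tumor livers, then -0.21, -0.56, -1.78 and -0.07 in tumors and -0.59, -1.08, -1.44 and -1.60 in regression samples. The pre-tumor arrays lay above all tumor and regression arrays and overlapped only control 1. Tumors differed from pre-tumor livers by -1.23, which was not called (limma adjusted p = 0.103), but a second probe was called lower (-1.19, adjusted p = 0.049). The difference between regression and pre-tumor liver was -1.76 ± 0.50 (adjusted p = 0.0342). There the second probe, well above background on 2 of 4 regression arrays, gave -2.04 (adjusted p = 0.00348). This made Azin1 the 1 of 10 genes called lower in that comparison, where 4.89% of all genes were, beside 2 of 10 called higher (Sat1 and Smox) against 5.03%. The Azin1 call was made in 19 of 27 alternatives, and the difference was -0.67 with normexp background correction and -1.14 in the authors' deposited table. It was lost with median centring (adjusted p = 0.0861), with the slide as a block (0.0776), and without any 1 of pre-tumor 1, 3 or 4 or regression 2, 3 or 4.

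**Figure D2:**
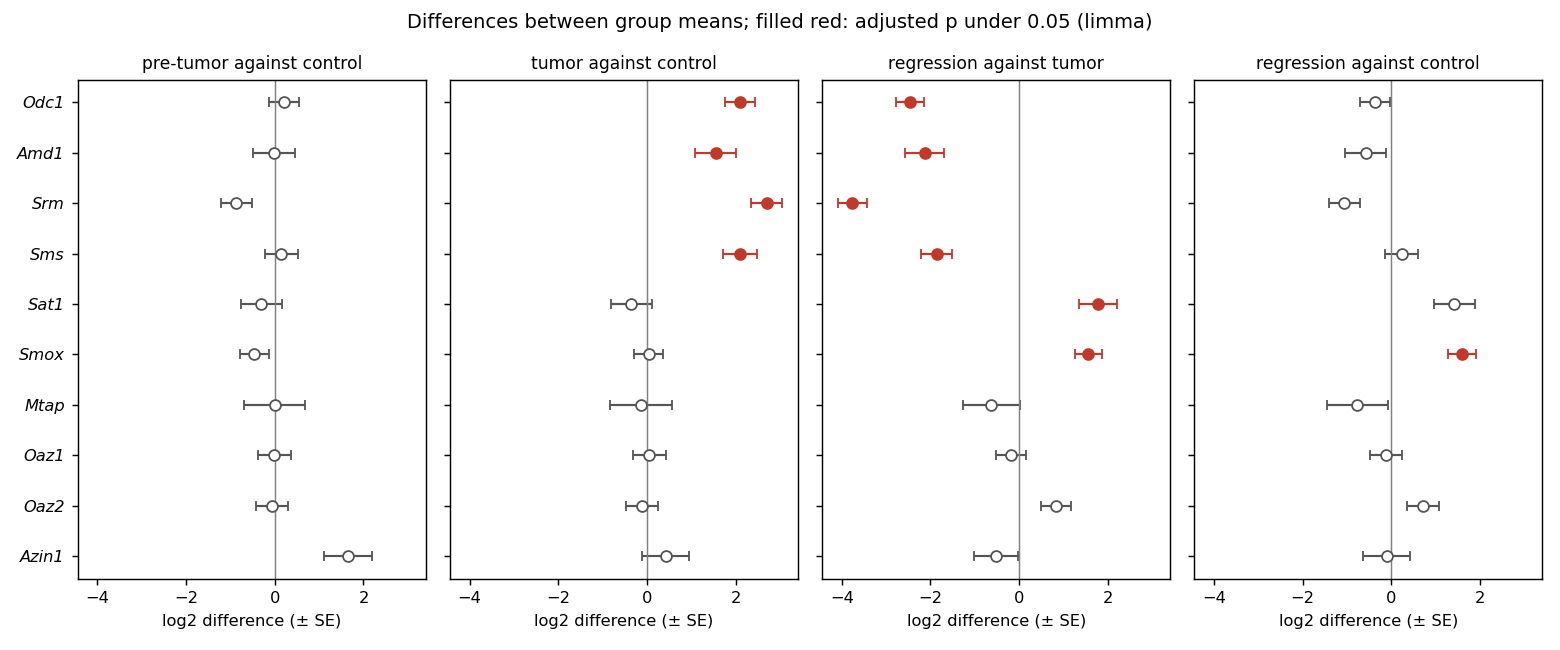
Difference between group means for each polyamine gene in 4 of the 6 comparisons, in log2 with its SE; filled red points were called by limma. The synthesis genes lie to the right in tumors against control and to the left in regression against tumor, where Sat1 (1.77) and Smox (1.56) lie to the right.

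Before tumors formed, no polyamine gene passed the test. The Myc probe that rose in tumors (A_52_P108346) was 2.06 above control in pre-tumor liver, which was not called (limma adjusted p = 0.857). The same probe was 3.10 higher in tumors than in pre-tumor liver (adjusted p = 3.38e-04). In pre-tumor liver against control, 0 of 10 polyamine genes were called in either direction, and so were 0% of all genes higher and 0% lower. At an unadjusted limma p under 0.05 there were 504 of 19233 genes. That is a smaller share than the 0.05 that would pass on average without any difference between the groups. The most that any of the 27 alternative analyses called was 6 higher and 5 lower, with normexp background correction. Odc1 differed by 0.20 ± 0.34, Amd1 by -0.02 ± 0.47 and Sms by 0.15 ± 0.38. Srm differed by -0.87 ± 0.35, with every pre-tumor array below every control array, and Azin1 by 1.65 ± 0.54. Both had a limma adjusted p of 1.00. Tumors set directly against pre-tumor livers gave 4 of 10 genes higher, the 4 synthesis genes, where 10.1% of all genes were higher, and 0 of 10 lower, where 9.08% were.

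After regression no synthesis gene differed from control or from pre-tumor liver by a called amount. Regression differed from pre-tumor liver by -0.57 ± 0.31 for Odc1, -0.19 ± 0.32 for Srm, -0.56 ± 0.43 for Amd1 and 0.09 ± 0.35 for Sms, none of them called. The median difference of the 10 genes was 0.24 in tumors against control and -0.58 in regression against tumor, beside -0.18 and -0.13 over all genes tested. In tumors against control 4 of the 10 lay wholly above and 0 wholly below, as did 13.7% and 11.9% of all genes tested. Regression against tumor gave 3 above and 4 below (10.8% and 13.1% of all genes). Regression against control gave 2 and 2 (10.2% and 15.2%), and regression against pre-tumor 2 and 1 (7.31% and 10.1%). Tumors against pre-tumor gave 3 and 1 (11.6% and 9.45%), and pre-tumor against control 0 and 1 (1.89% and 0.967%).

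Differences within slides are given for their size. Tumor arrays did not overlap control or regression arrays for the synthesis genes, nor regression arrays for Sat1, Smox and Oaz2. The directions of these genes within slides were therefore fixed and add no support. On the 3 slides with both groups, tumor exceeded control for each synthesis gene, by 1.56 to 2.35 for Odc1, 0.55 to 2.24 for Amd1, 2.59 to 2.92 for Srm and 1.60 to 2.81 for Sms. On all 4 slides regression was below tumor, by -2.85 to -1.69 for Odc1, -3.09 to -1.18 for Amd1, -4.83 to -2.94 for Srm and -2.25 to -0.73 for Sms. Sat1 was higher by 0.42 to 2.74, Smox by 1.35 to 1.80 and Oaz2 by 0.54 to 1.14 on each of the 4. Mtap, Oaz1 and Azin1 went up on some slides and down on others in both comparisons.

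**Figure D3:**
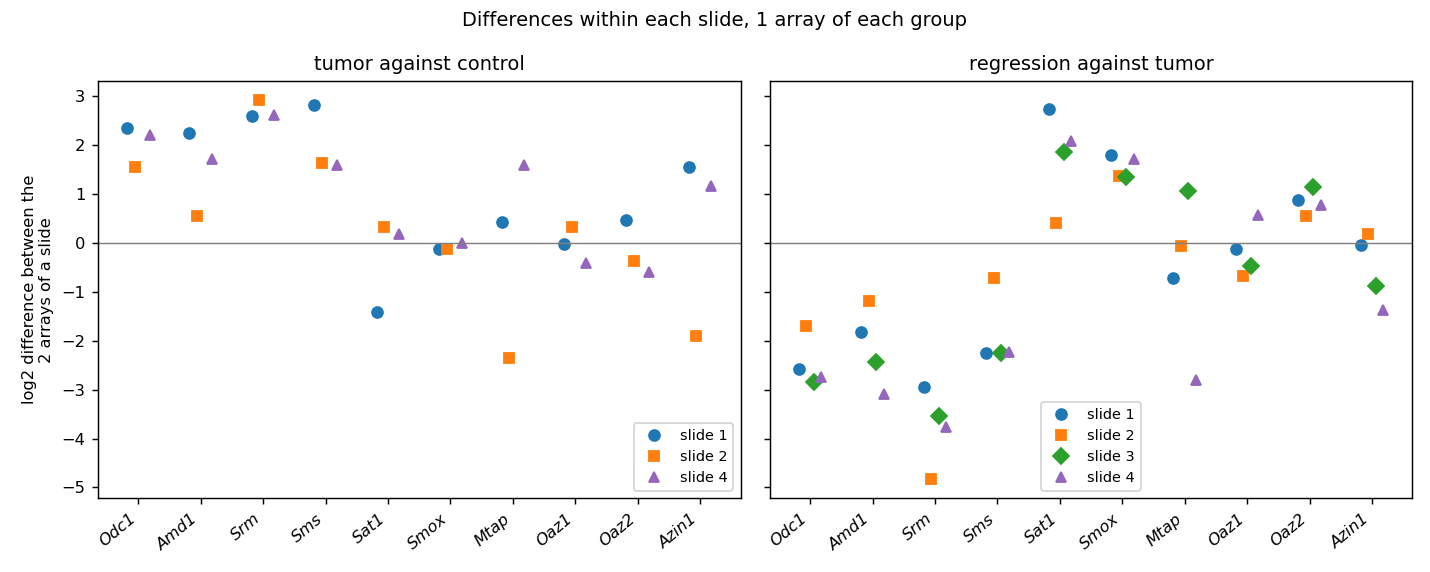
Log2 difference between the 2 arrays of a slide for each polyamine gene, tumor minus control (3 slides) and regression minus tumor (4 slides). Points of the synthesis genes lie on 1 side of 0 in each panel, and those of Sat1 (0.42 to 2.74) and Smox (1.35 to 1.80) lie above 0 in regression. For these points the groups compared did not overlap, so the side of 0 was fixed.

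Across the 15 arrays, levels of the synthesis genes were correlated. Pearson's r with Odc1 was 0.92 for Amd1, 0.90 for Sms and 0.89 for Srm, and Sat1 and Smox had an r of 0.87 with each other. These correlations describe arrays that share 4 groups and carry no test. The genes most like Odc1 over the same arrays were Nup155 (0.98), a nuclear pore protein, and Tyms (0.96), thymidylate synthase, with Tyms-ps (0.96). Those most like Srm were Rcc1 (0.97), Mybbp1a (0.97) and Fubp3 (0.96), and those most like Sat1 were C5ar1 (0.94), a complement receptor, Ednrb (0.93) and Heg1 (0.92).

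Of 9 genes that feed or drain ornithine and arginine, 6 fell and 1 rose in tumors against control, where 7 of 8 hepatocyte markers also fell. Of all genes tested, 7.01% fell and 9.41% rose there. Otc, which carries ornithine into the urea cycle, fell by 4.99 ± 0.66, and Oat, which turns ornithine towards glutamate, fell by 2.48 ± 0.50 (limma adjusted p = 6.5e-05 and 0.00227). Arg1, which makes ornithine from arginine, fell by 3.28 ± 0.50 (adjusted p = 2.58e-04). Cps1, Asl and the ornithine carrier Slc25a15 fell by 2.21, 1.97 and 1.44. Aldh18a1, which starts ornithine and proline synthesis from glutamate, rose by 2.33 ± 0.62, with 1 of 3 control arrays well above background. On regression 1 of the 9, Otc, rose (2.89 ± 0.61, adjusted p = 0.00403), and Arg1 differed by 1.39 ± 0.47 (adjusted p = 0.0527). Of all genes, 8.36% rose on regression.

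Of 10 genes of the methionine cycle and methionine salvage, which supply S-adenosylmethionine to Amd1 and recover it, 5 fell and 0 rose in tumors. The shares of all genes were 7.01% and 9.41%. Mat1a, the adult liver's S-adenosylmethionine synthetase, fell by 3.35 ± 0.51 (limma adjusted p = 2.46e-04), Gnmt by 3.86, Bhmt by 2.84, Ahcy by 1.80 and the salvage enzyme Apip by 1.30. Mat2a, the synthetase of other tissues, differed by 0.77 ± 0.41 (adjusted p = 0.231). On regression, where 8.36% of all genes rose, 2 of the 10 rose, Bhmt by 2.92 and Mat1a by 2.33.

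Spermidine is also used to make hypusine, an amino acid found in eIF5A. Of 4 genes of that step, 2 rose in tumors: Dhps, which transfers part of spermidine to eIF5A, by 1.50 ± 0.29 (limma adjusted p = 0.0018) and Eif5a by 1.37 ± 0.35 (adjusted p = 0.0116). Of all genes, 9.41% rose there. Dohh, the second enzyme, differed by 0.86 ± 0.28 (adjusted p = 0.0503). On regression Eif5a fell by 1.91 ± 0.32 and Dhps by 1.44 ± 0.27, and both were called, as were 8.49% of all genes in that direction. Dhps stood at 0.04 ± 0.15 (SD, n = 4) after regression and at -0.02 ± 0.06 (n = 3) in controls.

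Transporters of polyamines and of arginine and its relatives divided in tumors: of 7 genes tested, 2 rose and 1 fell. The shares of all genes were 9.41% and 7.01%. Slc7a1, the widely expressed arginine transporter, was not well above background on any of the 3 control arrays and was at least 11.3-fold higher in tumors, taking for the controls the dimmest probe signal that still counted as well above background (limma adjusted p = 1.6e-05). Slc3a2 rose by 1.16 ± 0.32. The liver arginine transporter Slc7a2 fell by 2.77 ± 0.50. On regression Slc7a1 fell by 2.47, while Slc7a2 and the lysosomal polyamine exporter Atp13a2 rose by 1.82 and 1.46. Of all genes, 8.49% fell and 8.36% rose there. Of 8 further polyamine genes, 1 rose in tumors (Amd2, whose transcripts the Amd1 probes may not separate), where 9.41% of all genes rose. On regression 2 of the 8 fell (Amd2 and Agmat, by 1.21), where 8.49% of all genes fell. Paox, an oxidase of acetylated polyamines, differed from control by 1.10 ± 0.45 in tumors (adjusted p = 0.115).

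**Figure D4:**
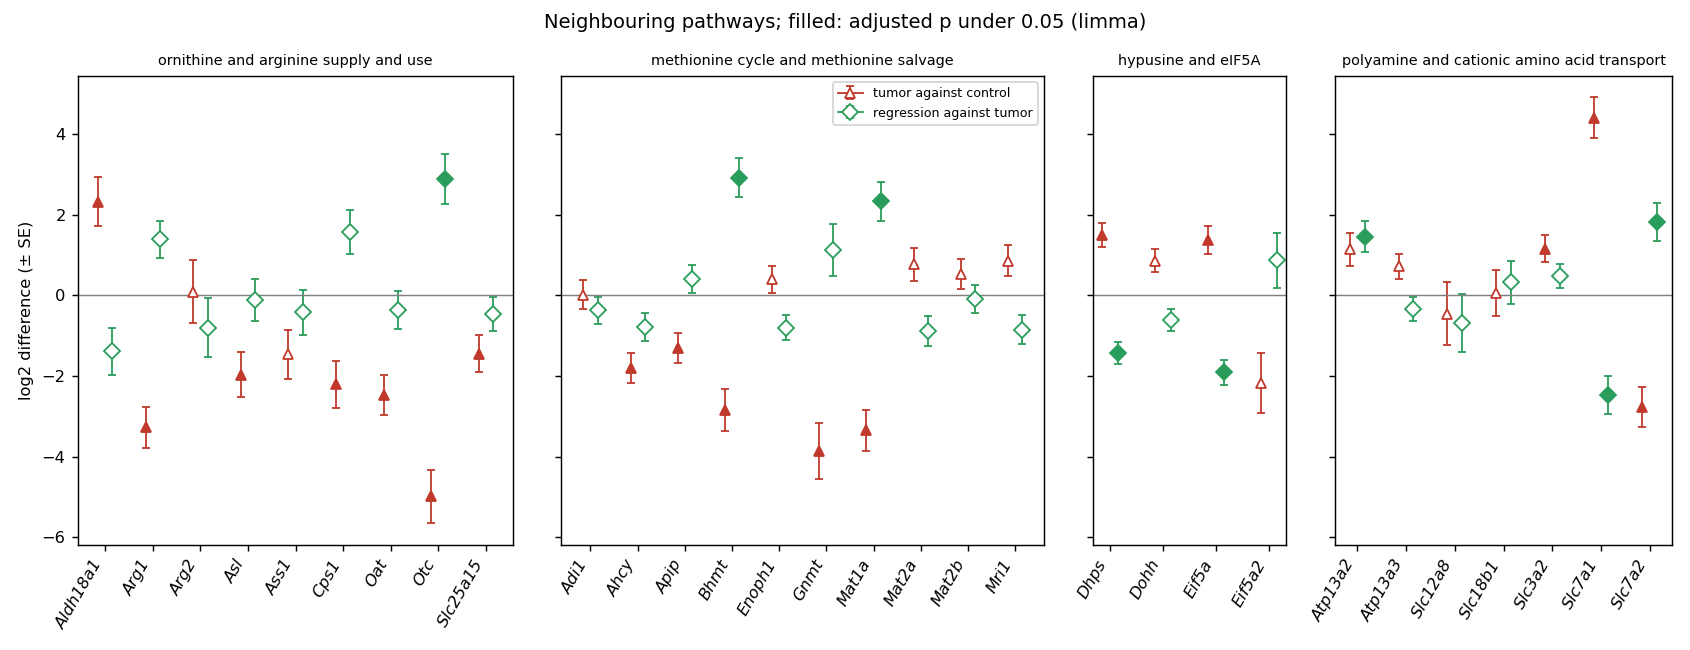
Log2 difference with its SE for genes of ornithine supply, the methionine cycle, hypusine synthesis and transport, in tumors against control (triangles) and regression against tumor (diamonds); filled symbols were called by limma. Otc (-4.99) marks the low end in tumors and Slc7a1 the high end, while Eif5a and Dhps rise in tumors and fall on regression.

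Markers of cell types moved with these groups. Of all genes, 9.41% rose and 7.01% fell in tumors against control, and 8.36% rose and 8.49% fell on regression. In tumors 6 of 6 markers of dividing cells rose over control, and their summed linear level, in units of the array's 75th percentile, went from a range of 2.87 to 5.30 in controls to 98.3 to 171 in tumors and 8.63 to 11.3 in regression samples, where all 6 fell. Mki67 was well above background on 1 of 3 control arrays and all 4 tumor arrays. Hepatocyte markers fell in tumors for 7 of 8, and 7 of 8 rose on regression. The sum over the 4 of them measured on every array was 924.5 to 1153 in controls, 148.7 to 682.3 in tumors and 1232 to 1624 in regression samples. Of 7 stellate cell and fibroblast markers, 4 rose in tumors (5.55 to 15.9 in controls, 25.4 to 41.2 in tumors). Of 7 macrophage markers 2 rose and 2 fell there (18.8 to 34.7, then 15.7 to 45.8), and of 7 endothelial markers 2 fell (5.36 to 11.2, then 2.42 to 4.02). Their part in the results for Odc1, Amd1, Srm and Sms and for the genes of ornithine, methionine, hypusine and transport was not tested. In bulk tissue fewer cells of a type and less RNA per cell cannot be told apart.

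Beside the rise of Sat1 and Smox on regression, 4 of 7 macrophage markers rose (sum 15.7 to 45.8 in tumors, 60.9 to 130.4 after), among them Adgre1 and Csf1r. So did 4 of 7 T and NK cell markers (2.65 to 3.12, then 6.12 to 10.1), 5 of 7 endothelial markers (2.42 to 4.02, then 6.84 to 12.9) and 6 of 7 markers of stellate cells and fibroblasts (25.4 to 41.2, then 69.9 to 284). Of 4 erythroid markers, 3 rose (19.5 to 214 in tumors, 124.5 to 432 after). By contrast 0 of 5 B and plasma cell markers, 0 of 4 neutrophil markers and 1 of 6 bile duct cell markers rose. Of all genes, 8.36% rose on regression. In the 4 tumors all 7 macrophage markers were well above background on every array. Among the T and NK cell, endothelial, and stellate cell and fibroblast markers, Lum was so on 0 tumor arrays, Cd2 and Klrb1c on 1, and Cd8a and Tek on 2. Their part in the result for Sat1 and Smox was not tested.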

How the data were processed

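RNA from 15 liver and tumor samples was amplified, labelled with Cy3 and hybridized to Agilent whole-genome mouse arrays, per the labels' protocols. The deposited spot intensity values are Feature Extraction 10.5.1.1 output, background-subtracted and detrended per the file headers. The authors also deposited a matrix of log2 values whose normalization is not given in the sources used here; it served to choose probes by symbol and as an alternative. Processed signals were log2 transformed and each array's 75th percentile subtracted; flagged spots (0.452% of values) were left out. A probe had to be well above background on at least 3 of 15 arrays, and the brightest passing probe stood for its gene. Symbols were updated by gene ID, and 19951 of 21335 genes matched the RefSeq table. Groups were compared in 1 limma 3.58.1 model (R 4.3.3, 4 groups, 11 residual degrees of freedom) with 6 comparisons. Single-probe values come from the same model fitted to all passing probes. The number of arrays limits the precision.

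All 10 members are named, as are, from each related list, up to 6 genes called in tumors against control by adjusted p, a few fixed genes (Arg1, Paox, Eif5a, Dhps, Mat1a, Mat2a and Myc), and the 3 genes most correlated with Odc1, Srm and Sat1. One transporter was left out of its list and is not reported here. Dohh, Agmat, Atp13a2 and the cell type markers named were chosen after their values were seen. The members and lists were chosen with earlier results of these data known. Alternatives were 12 other settings and 15 fits that each left out 1 array. Normexp used median spot and background signals, since the files hold no mean signal. The main fit was also run on simulated arrays with independent noise for each gene and changes in tumors only. The simulation held no differences between slides or in array quality, so it cannot show how the fit performs with them.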

Additional observations from a re-analysis of the deposited data

Results flagged for a closer look

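Odc1 on the array of tumor 3 read 3.31, while the other 3 tumors lay between 4.13 and 4.24. Its gap to the nearest tumor was 0.884 of the group's range, above Dixon's critical value for 4 samples. This was the 1 flag among 30 checks of a gene in a group, and chance flags about 1 in 20 groups. Tumor 3 was also the lowest tumor for Sms (1.29) and Amd1 (1.11) and the highest for Srm (5.39), and it had the smallest share of spots well above background (46.4%).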

How the results depend on the processing

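Over 27 alternatives no difference that was called changed its direction. In regression against tumor, the calls of Odc1, Srm, Sms, Amd1, Sat1 and Smox were made in all 27, and in tumor against control those of Odc1, Srm and Sms. The count of genes higher in regression against control was 1 in the main fit, where 5.04% of all genes were called higher. It was 2 with normexp correction (6.94% of all genes), quantile normalization (6.53%) and in the authors' deposited table (7.16%). It was also 2 with the filter on every array of a group (7.23%), trended robust variance (5.53%) and the mean of all probes (4.77%). With 1 array left out it ranged from 1 to 2, and the share of all genes from 3.32% to 5.49%. The count lower in regression against control went from 0 to 1 with normexp correction, quantile normalization and the authors' table. The share of all genes lower went from 3.30% to 4.14%, 3.52% and 4.13%. In tumor against pre-tumor the count lower went from 0 to 1 with normexp correction and the authors' table (Azin1). The share of all genes lower went from 9.08% to 8.99% and 9.34%. In regression against pre-tumor the count lower went from 1 to 0 with median centring and with the slide as a block. The share of all genes lower went from 4.89% to 2.91% and 3.22%. With 1 array left out the count lower ranged from 0 to 1 and the share from 3.4% to 5.68%. There the count higher ranged from 1 to 2 and the share from 3.45% to 5.42%. The cause was not tested. With normexp correction the rise over control was 1.15 for Sms and 0.98 for Amd1, and the fall on regression was -1.05 and -1.25. With the replicate number as a block, the count higher in regression against control was 2, since Sat1 then passed (1.54, limma adjusted p = 0.0121). In that setting 6.79% of all genes were higher. Same-numbered arrays had a median correlation of deviations of 0.12 (-0.44 to 0.61, 21 pairs). Arrays with other numbers had -0.035 (-0.623 to 0.544, 63 pairs), and arrays of the same slide -0.169. Whether the numbers pair the samples was not tested. In regression against tumor the count higher went from 2 to 3 with normexp correction and the authors' table (Oaz2). The share of all genes higher went from 8.36% to 8.96% and 9.66%. Mtap, well above background on 14 of 15 arrays, had the largest SE of the 10 genes in each comparison (0.64 to 0.69).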
